A study of Mus musculus with 44 samples.

Results

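The 10 genes described here are known from the blood vessel lining, though not all of them are confined to it. They are Cldn5, Cdh5, Pecam1, Flt1, Tek, Vwf, Icam1, Vcam1, Selp and Slc2a1. They were chosen by name as 10 of the 55487 genes in each of the 2 deposited count tables, and each symbol matched 1 Ensembl mouse gene. All 10 passed the filter on low counts in both tables. The study measured RNA in mouse nucleus accumbens, a striatal region of the forebrain, after a virus delivered RXRa, the retinoid X receptor alpha that pairs with other nuclear receptors on DNA, or only a fluorescent protein. Bulk tissue came from males given a herpes simplex virus vector, HSV-GFP in 4 libraries and its RXRa counterpart in 4. Sorted nuclei, D1 or D2 after the dopamine receptor genes Drd1 and Drd2 of striatal neurons, came from females and males given AAV9-CAG-DIO-EGFP or AAV9-CAG-DIO-EGFP-P2A-RXRa. The DIO insert is turned on by Cre recombinase, so every sorted group, controls included, presupposes a Cre source. The mouse line, the driver of Cre, the age and the time after virus are not given in the sources used here. The sorted groups with EGFP and with RXRa held 5 and 4 libraries in D1 females, 5 and 4 in D1 males, 4 and 4 in D2 females and 5 and 4 in D2 males. The labels do not say whether libraries of a group came from separate animals, so p-values measure the spread between these libraries only.

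Brain capillaries form a barrier because their endothelial cells are sealed by tight and adherens junctions and carry nutrients across with dedicated transporters. The same cells respond to growth factors through receptor tyrosine kinases. When activated by cytokines they display adhesion molecules that capture circulating leukocytes, and NF-kB is a well known inducer of those molecules. Neurons are not known as the main source of these transcripts in brain.

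The promoters of 2 adhesion genes and 2 barrier genes are shown because the adhesion genes had the largest bulk differences, while Slc2a1 passed the test and Cldn5 barely differed. RefSeq (GRCm38.p6) windows matched 6 of the 10 genes: Cldn5, Flt1, Tek, Icam1, Selp and Slc2a1. The 250 bases before the start site are printed 5′ to 3′ on the plus strand, with capitals marking a motif match. They lie at chr9:21015690-21015939 for Icam1, chr1:164115014-164115263 for Selp, chr4:119108495-119108744 for Slc2a1 and chr16:18776597-18776846 for Cldn5. The start sites are those of RefSeq, and for Icam1 and Slc2a1 they differ from the gene starts given below. The printed Slc2a1 bases run past the gene start given below.
Icam1: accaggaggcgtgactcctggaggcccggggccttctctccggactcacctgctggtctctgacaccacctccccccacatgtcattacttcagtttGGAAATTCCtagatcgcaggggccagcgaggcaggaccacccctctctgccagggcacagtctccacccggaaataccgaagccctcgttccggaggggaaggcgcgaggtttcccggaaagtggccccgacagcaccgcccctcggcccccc
Selp: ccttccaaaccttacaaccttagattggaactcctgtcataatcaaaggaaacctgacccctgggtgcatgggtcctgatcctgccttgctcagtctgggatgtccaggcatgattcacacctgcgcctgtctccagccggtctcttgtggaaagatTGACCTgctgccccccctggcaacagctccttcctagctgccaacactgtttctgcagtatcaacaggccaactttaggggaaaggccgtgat
Slc2a1: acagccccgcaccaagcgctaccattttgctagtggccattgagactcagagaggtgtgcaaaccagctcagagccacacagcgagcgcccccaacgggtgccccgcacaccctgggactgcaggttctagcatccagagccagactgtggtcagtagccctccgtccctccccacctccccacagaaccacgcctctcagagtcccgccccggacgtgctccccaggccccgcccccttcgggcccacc
Cldn5: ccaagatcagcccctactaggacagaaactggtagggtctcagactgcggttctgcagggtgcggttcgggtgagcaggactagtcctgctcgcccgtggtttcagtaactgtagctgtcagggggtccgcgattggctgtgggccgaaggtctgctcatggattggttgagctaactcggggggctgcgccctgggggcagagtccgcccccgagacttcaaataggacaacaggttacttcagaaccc

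Both strands of each 300-base window, from 250 bases before to 50 after the start site, were searched for 4 motifs that do not contain one another. They were a narrow spelling of the NF-kB consensus, a palindromic NF-kB form spelled GGAANTTCC, a single spelling of the interferon response element and the nuclear receptor half-site AGGTCA. The narrow NF-kB spelling begins with GGG, ends with CC and requires TT in between. Wider spellings of the NF-kB consensus were not searched. Of the 6 windows, Icam1 held GGAAATTCC at position -153 on the plus strand, and Selp held AGGTCA at position -93 on the minus strand. GGAANTTCC was present in 0.928% and AGGTCA in 16.3% of all 32851 windows. The narrow NF-kB spelling was present in 4.79% and the interferon response spelling in 3.44% of them, and neither in any of the 6. This does not show that the 6 windows, that of Flt1 included, lack a wider NF-kB consensus. These are matches of letters in these windows and not measured sites.

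In bulk tissue, 9 of the 10 genes had a higher estimate with RXRa and 2 of them passed the test, Cdh5 and Slc2a1. The median log2 fold change of the 10 was 0.39, against -0.02 over all 18579 genes tested. A gene is called here when its Benjamini-Hochberg adjusted p from edgeR's quasi-likelihood test is under 0.05, and 3.70% of all genes tested were called, 3.01% as higher and 0.689% as lower. Levels are CPM, counts scaled to a library of 1000000 with TMM scaling. In tissue, the cell type behind a read is not known. More cells of a type and more RNA per cell cannot be told apart there.

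Cdh5 encodes VE-cadherin, the cadherin of endothelial adherens junctions (chr8:104101625-104144511 on GRCm38). It measured 23.6, 20.5, 17.0 and 21.8 CPM in GFP libraries 1 to 4 and 27.5, 34.4, 31.5 and 31.0 CPM in RXRa libraries 1 to 4. All 4 RXRa libraries lay above all 4 GFP libraries. The mean rose from 20.7 ± 2.78 to 31.1 ± 2.81 CPM (SD, n = 4 each), which is 0.59 on the log2 scale (SE 0.11, edgeR adjusted p = 0.0234). The call was lost when any 1 of GFP 2, GFP 4, RXRa 2, RXRa 3 or RXRa 4 was left out, with edgeR adjusted p between 0.0552 and 0.0847. Cdh5 overlaps the antisense gene Gm29682, and whether the counting used strand is not stated, so reads of the pair may be shared.

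Cldn5 encodes claudin-5, the main claudin of brain endothelial tight junctions (chr16:18776847-18778262). Its GFP libraries read 74.9, 60.9, 42.9 and 60.9 CPM and its RXRa libraries 63.1, 59.9, 62.5 and 66.5 CPM. The groups overlapped, and the GFP libraries were more spread. The log2 fold change was 0.07 (SE 0.14, 95% interval -0.24 to 0.38, edgeR adjusted p = 0.809), and without GFP 3 it was -0.059.

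Pecam1 encodes CD31, an adhesion molecule at endothelial cell contacts (chr11:106654217-106750628). Levels were 35.4, 34.2, 25.4 and 33.0 CPM with GFP and 38.3, 48.2, 40.0 and 41.9 CPM with RXRa. The groups did not overlap. The log2 fold change of 0.40 (SE 0.11) missed the threshold (edgeR adjusted p = 0.0877).

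Slc2a1 encodes GLUT1, the glucose transporter of the barrier (chr4:119108711-119137983). Levels were 139, 136, 114 and 130.1 CPM with GFP and 149.96, 177, 161 and 165 CPM with RXRa, again without overlap. The mean rose from 129.8 ± 11.2 to 163 ± 11.2 CPM (SD, n = 4 each), which is 0.33 on the log2 scale (SE 0.08, edgeR adjusted p = 0.0467). Leaving out any library other than RXRa 1 ended the call, with edgeR adjusted p between 0.0520 and 0.149, and limma voom gave 0.0507. Slc2a1 overlaps Gm12867, Gm12868 and Mir1957a, and is also expressed outside endothelium.

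**Figure D1:**
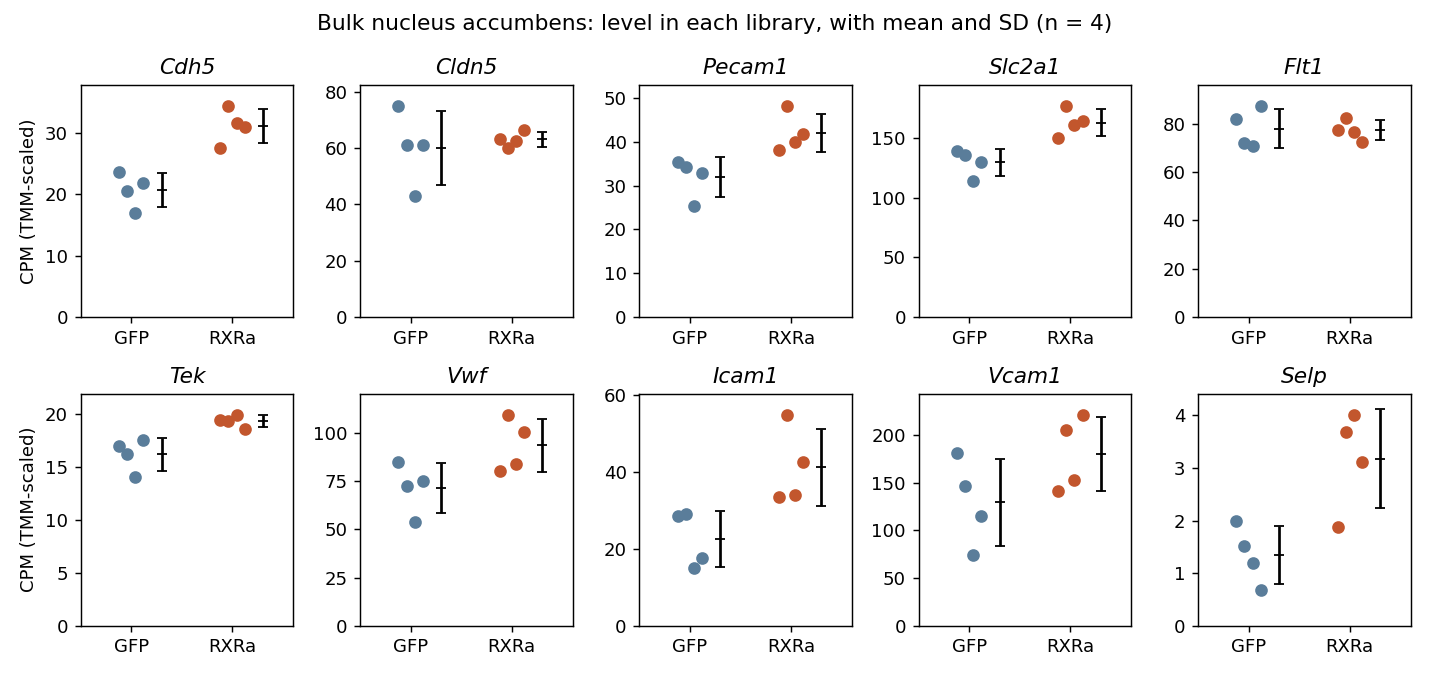
Level of each gene in bulk nucleus accumbens (y axis, TMM-scaled CPM from 0) in the 4 GFP and 4 RXRa libraries (points), with the mean and SD beside them. For Cdh5, Pecam1, Tek, Icam1 and Slc2a1 every RXRa library lies above every GFP library.

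Flt1 encodes VEGF receptor 1, which binds VEGF and limits its action (chr5:147561604-147726011). Its GFP libraries read 82.0, 71.9, 70.8 and 87.4 CPM and its RXRa libraries 77.6, 82.6, 76.5 and 72.5 CPM. The groups overlapped, and the log2 fold change was -0.01 (SE 0.08, 95% interval -0.19 to 0.16, edgeR adjusted p = 0.946). It became 0.023 when libraries were scaled by their totals.

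Tek encodes TIE2, the receptor of the angiopoietins (chr4:94739289-94874976). It read 17.0, 16.2, 14.1 and 17.6 CPM with GFP and 19.4, 19.4, 20.0 and 18.6 CPM with RXRa. The groups did not overlap, but the log2 fold change of 0.25 (SE 0.08) did not pass the test (edgeR adjusted p = 0.117). Vwf encodes von Willebrand factor, a clotting protein that endothelial cells store in granules (chr6:125546774-125686679). It read 85.1, 72.6, 53.9 and 75.0 CPM with GFP and 80.1, 109.5, 84.2 and 100.5 CPM with RXRa. GFP 1 lay above 2 of the RXRa libraries, and the log2 fold change of 0.39 (SE 0.14) did not pass (edgeR adjusted p = 0.166).

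Of the 3 molecules that capture leukocytes, Selp and Icam1 had the largest estimates of the 10 genes, and all 3 had larger standard errors than the other 7. Icam1 encodes a ligand of leukocyte beta-2 integrins (chr9:21015985-21028817). It read 28.7, 29.1, 14.9 and 17.7 CPM with GFP and 33.5, 54.9, 33.9 and 42.5 CPM with RXRa, without overlap. The log2 fold change was 0.87 (SE 0.24, edgeR adjusted p = 0.0838). Icam1 overlaps the antisense gene Gm47079.

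Vcam1 encodes the ligand of the integrin alpha-4 beta-1 (chr3:116109949-116129688). It read 181, 146, 74.3 and 115 CPM with GFP and 141, 205, 152 and 221 CPM with RXRa. The groups overlapped, since GFP 1 lay above RXRa 1 and RXRa 3, and the log2 fold change of 0.48 (SE 0.25) did not pass (edgeR adjusted p = 0.312). Selp encodes P-selectin, which starts the rolling of leukocytes (chr1:164115264-164150026). It was scarce, at 1.98, 1.52, 1.18 and 0.68 CPM with GFP and 1.87, 3.68, 4.01 and 3.12 CPM with RXRa. Only RXRa 1 fell within the GFP range, and the log2 fold change of 1.23 (SE 0.33) missed the threshold (edgeR adjusted p = 0.0738). Vcam1 overlaps Gm43109, and Selp overlaps Gm16548 and Gm16587.

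RXRa lay above GFP without overlap for 5 of the 10 genes and below it for 0, against 6.64% and 6.54% of all genes tested. Under an unadjusted p of 0.05 were 7 of the 10, against 3990 of 18579 genes. DESeq2 called 5 of the 10, adding Pecam1, Icam1 and Selp, and edgeR without the filter on low counts called 4, adding Icam1 and Selp.

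Divided by exon length, the order of levels in GFP tissue was Cldn5 with 42.3 ± 9.24 CPM per kb of exon (SD, n = 4), Slc2a1 with 37.0 ± 3.19 and Vcam1 with 14.6 ± 5.12. Flt1 (5.78), Icam1 (5.18), Pecam1 (5.14), Cdh5 (4.93) and Vwf (4.46) followed within one another's spread. Tek reached 3.44 and Selp 0.304 CPM per kb of exon. Cldn5 and Slc2a1 also overlapped within their spread.

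**Figure D2:**
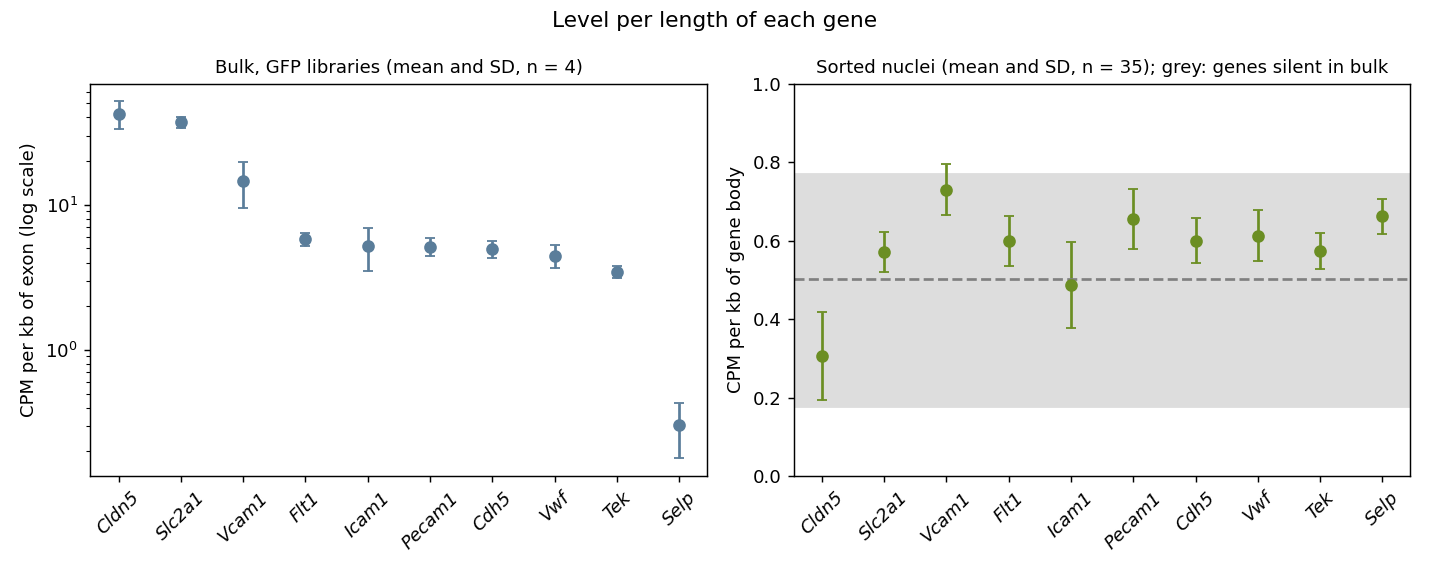
Left, level per kb of exon in the 4 bulk GFP libraries (log axis, mean and SD); right, level per kb of gene body in the 35 sorted libraries (mean and SD), with the dashed line and grey band at the median and the 5th to 95th percentile of genes silent in bulk. The bulk levels run from 0.304 to 42.3, while the sorted levels run from 0.306 to 0.730 and all lie inside the band.

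Once the group means were subtracted, the genes varied together across the 8 bulk libraries. Over the 45 pairs the median Pearson r of the residuals was 0.70, from -0.17 (Flt1 with Selp) to 0.98 (Pecam1 with Slc2a1), and 43 were above 0. These are descriptions over 8 libraries that share their scaling. No r of other gene sets, and none without GFP 3, is given beside them, so they do not show a trait of these genes alone. GFP 3 had the lowest mean residual, -0.59 in units of z, and was the lowest GFP library for 9 of the 10 genes, Selp being the exception. It also had the lowest GFP sum of microglia (705 CPM), mural cell (303 CPM) and perivascular fibroblast markers (110 CPM). Its sums of astrocyte (4820 CPM), oligodendrocyte (5533 CPM) and T and NK cell markers (70.5 CPM) were the highest with GFP. Most alike to the mean of the 10 among 15999 other genes were C730034F03Rik (r = 0.998), C3ar1 (0.994), Cd34 (0.990), Themis2 (0.989) and Cd93 (0.984). Cd34 and Cd93 are endothelial and blood cell surface proteins, and C3ar1 is a complement receptor known from myeloid cells.

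Other endothelial genes rose in part. Of 14 endothelial markers outside the 10 genes, 6 were called higher and 0 lower (median log2 fold change 0.35), led by Kdr at 0.71, the main VEGF receptor, Ly6c1 at 0.67, Tie1 at 0.53 and Egfl7 at 0.45. Their summed level was 692 to 768 CPM with GFP and 810 to 865 CPM with RXRa, without overlap, and none was at 0. Of 23 angiogenic receptors, ligands and regulators, 6 were called higher and 0 lower (median 0.24), with Ets1 at 0.79, Angpt1 at 0.74, Kdr at 0.71 and Flt4 at 0.60. Kdr, Tie1 and Egfl7 are in both of these lists and count in each. Of 17 genes of junctions and vesicle traffic, 1 was called, Esam at 0.31, with a median of 0.08. Of 15 barrier transporters, 2 were called, the efflux pumps Abcg2 at 0.43 and Abcb1a at 0.32, with a median of 0.13. Esam and Abcb1a are also among the 6 endothelial markers called.

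A list of leukocyte adhesion partners, which also holds endothelial and neuronal adhesion molecules, gave calls in both directions. Of 18 tested, 5 were called higher and 1 lower (median 0.51). Among the higher ones were Spn at 1.71, Itgb7 (5.36 ± 2.03 to 15.2 ± 5.54 CPM, SD, n = 4), Itga4 at 1.31, the integrin chain that binds VCAM-1, and Icam2 at 0.79. Icam5, a neuronal member of the family, fell by 0.29 on the log2 scale.

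Markers of other cells and of inflammation moved with these genes in bulk, and their part in the result was not tested. Of 10 T and NK cell markers, 7 were called higher (median 1.82), and their summed level was 55.2 to 70.5 CPM with GFP and 69.4 to 140.0 CPM with RXRa. Of 7 monocyte, macrophage and neutrophil markers tested, 2 were called higher, Ly6c2 at 2.02 and Plac8 at 1.57. The sum over all 9 markers of that list was 85.5 to 238 CPM with GFP and 211 to 412 CPM with RXRa, with GFP 3 lowest. Of 15 interferon response genes 14 were called higher (median 1.19), and of 15 NF-kB and cytokine induced genes 4, Ccl5 at 1.35, Birc3 at 1.04, Tnfaip3 at 0.75 and Nfkbia at 0.42 (median 0.84). The sum of the NF-kB list was 245 to 448 CPM with GFP and 479 to 763 CPM with RXRa.

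The cells next to the endothelium differed, and perivascular fibroblast markers had the largest median log2 fold change of the lists in this paragraph. None of 12 mural cell markers (median 0.05), 8 microglia markers (0.05), 8 oligodendrocyte markers (-0.31) or 4 platelet markers tested (-0.29) was called by edgeR, with 1, 1, 4 and 1 of them at an unadjusted p under 0.05. Of 6 perivascular fibroblast markers 2 were called higher, Dcn at 0.85 and Col1a1 at 0.83. Their median was 0.78, and 5 had an unadjusted p under 0.05. Of 8 astrocyte markers 1 was called, Aqp4 at 0.57, the water channel of astrocyte endfeet on vessels. The astrocyte median was -0.07, with 5 at an unadjusted p under 0.05. Of 10 striatal neuron markers 1 was called lower, Bcl11b, which fell by 0.31 on the log2 scale. All 10 had estimates below 0 (median -0.18), with 5 at an unadjusted p under 0.05.

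**Figure D3:**
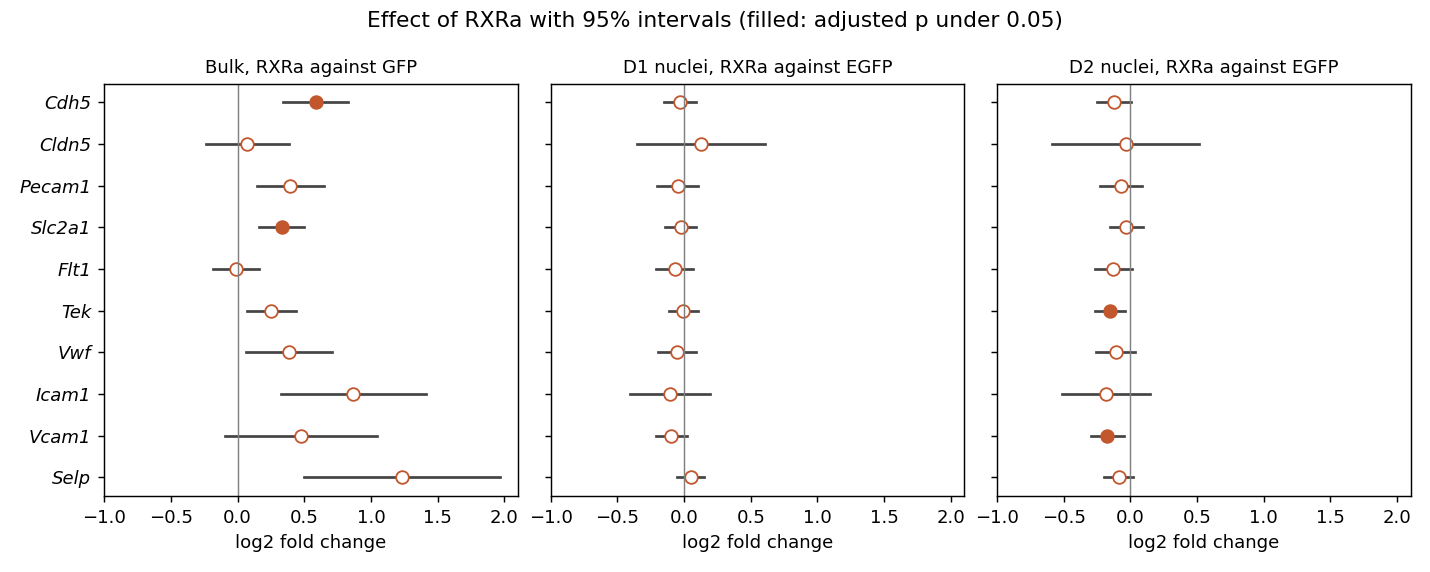
Log2 fold change of each gene with RXRa (x axis) and its 95% interval, in bulk tissue, D1 nuclei and D2 nuclei, with filled points at an edgeR adjusted p under 0.05. In bulk 9 estimates lie above 0, and in D2 all 10 lie below 0 by at most 0.18.

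In sorted nuclei the level of each gene per kb of gene body lay inside the range of genes with no count in bulk tissue. The reference comprised 1576 protein-coding genes on autosomes, with bodies of 5 kb or more and no count in the 8 bulk libraries. Their mean level over the 35 sorted libraries had a median of 0.501 and a 5th to 95th percentile of 0.176 to 0.771 CPM per kb of gene body. On that scale the 10 genes ran from 0.306 for Cldn5 to 0.730 for Vcam1, at the 13.3 and 92.1 percentiles of the reference. All but Cldn5 and Icam1 (percentile 46.4) lay above the reference median, from percentile 68.6 for Slc2a1 upward. Tek, Vcam1 and Selp exceeded the median silent gene in all 35 libraries, and Cldn5 in 2. The body of Cldn5, 1.416 kb, is shorter than any in the reference. Drd1, Drd2 and the synaptic gene Snap25 read 8.01, 6.90 and 3.66 CPM per kb of gene body as means over D1 and D2 libraries together, where the median of Drd2 was 1.57. The neuronal gene Rbfox3 read 0.847 (0.598 to 1.22 over the libraries), just above the 95th percentile of the silent genes, so this scale does not set every expressed gene apart. The values below therefore describe reads in these gene bodies, at levels inside the range of genes that are silent in bulk tissue, most of them above its median.

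The order of raw levels followed gene length. Cldn5, with a body of 1.416 kb, read 0.158 to 0.825 CPM over the 35 libraries, and Icam1, with 12.833 kb, read 3.02 to 9.04 CPM. Flt1, with 164.408 kb, read 73.4 to 115 CPM, Tek 62.7 to 91.6 CPM and Vwf 63.1 to 97.7 CPM. Pecam1 read 46.2 to 75.0 CPM, Cdh5 20.6 to 30.0, Selp 18.9 to 25.7, Slc2a1 12.9 to 19.4 and Vcam1 12.2 to 16.9 CPM.

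**Figure D4:**
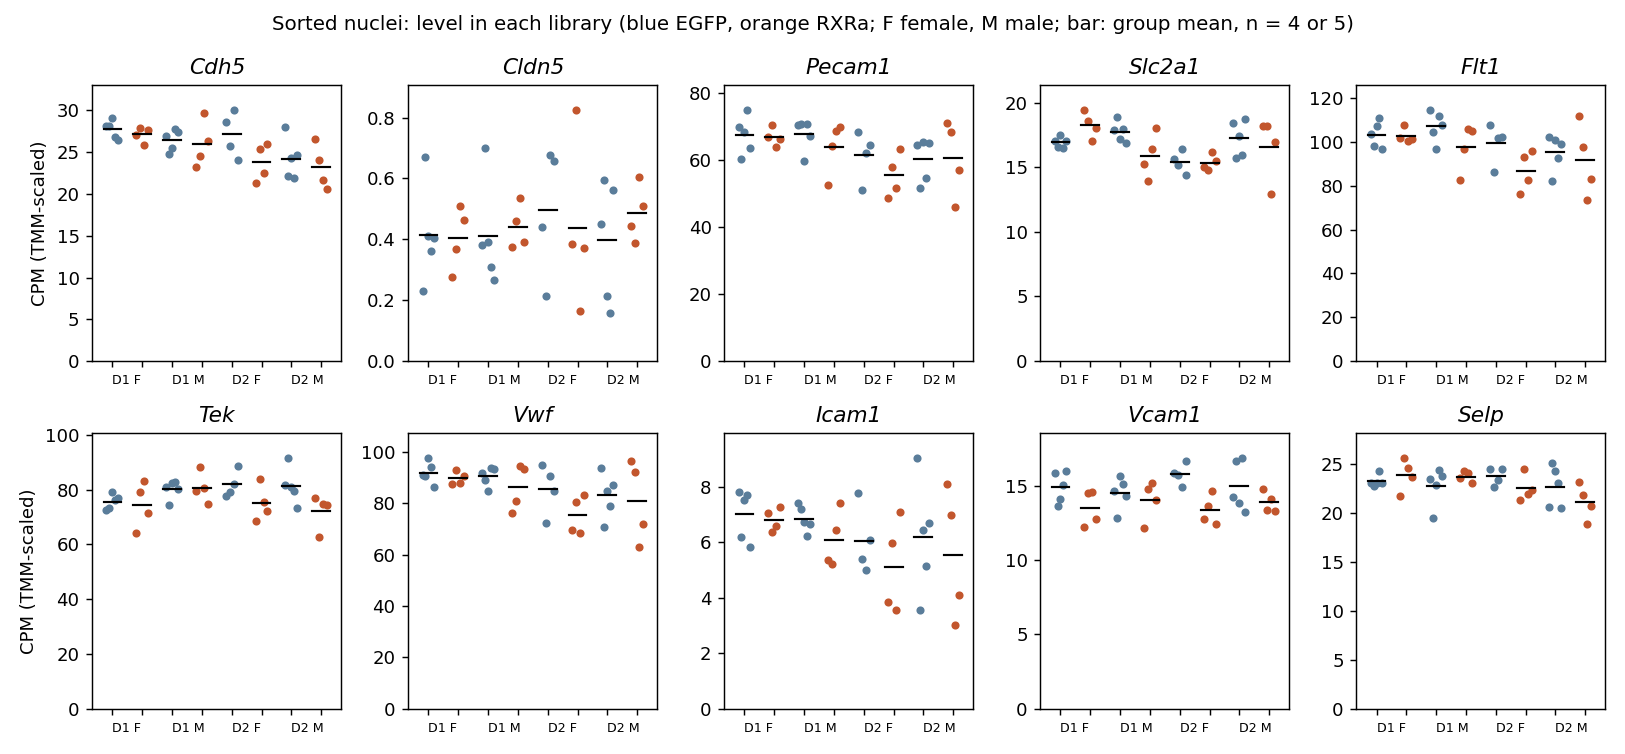
Level of each gene in the 35 sorted libraries (y axis, TMM-scaled CPM from 0) by population, sex and vector, with EGFP in blue, RXRa in orange and a bar at each group mean. EGFP and RXRa groups overlap for Tek in both D2 sexes, and for Vcam1 they are apart in D2 females and overlap in D2 males.

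In D1 nuclei none of the 10 genes was called with RXRa, and neither was any of the 43902 genes tested with edgeR (0%), although 3518 genes had an unadjusted p under 0.05. DESeq2 and limma voom also called 0 genes. The log2 fold changes of the 10 ran from -0.10 for Icam1 to 0.13 for Cldn5, and the lowest edgeR adjusted p was 0.669. None of the 10 had an unadjusted p under 0.05.

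In D2 nuclei all 10 estimates were below 0 (median -0.12, against -0.04 over all genes tested), and Tek and Vcam1 were called lower. edgeR called 22.1% of all genes tested in this comparison, 14.9% as higher and 7.14% as lower. So 2 of 10 is near the background of both directions together, and above that of genes called lower. That background was itself unstable: the 9683 calls became 0 without the library D2 female RXRa 4, 0 with the background covariate, 0 within each sex and 1 with the replicate block. With scaling by library totals the median over all genes moved to -0.20, and the share of called genes that were higher went from 67.6% to 18.1%.

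Tek in D2 females read 77.6, 79.1, 82.0 and 88.8 CPM with EGFP and 68.6, 83.7, 75.5 and 72.1 CPM with RXRa. In D2 males it read 81.8, 91.6, 80.9, 79.5 and 73.4 CPM with EGFP and 77.0, 62.7, 74.9 and 74.4 CPM with RXRa. The groups overlapped in both sexes. Over both sexes Tek fell by 0.15 on the log2 scale (SE 0.06, edgeR adjusted p = 0.0491).

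Vcam1 in D2 females read 15.9, 15.7, 14.9 and 16.6 CPM with EGFP and 12.8, 13.6, 14.6 and 12.4 CPM with RXRa, and these groups did not overlap. In D2 males it read 14.2, 16.7, 13.8, 16.9 and 13.2 CPM with EGFP and 14.8, 13.4, 14.1 and 13.3 CPM with RXRa, with overlap. Over both sexes Vcam1 fell by 0.17 on the log2 scale (SE 0.06, edgeR adjusted p = 0.0433). Neither gene was called within a sex, where the lowest edgeR adjusted p of the 10 was 0.110.

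Both D2 calls were lost with the share of background reads as a covariate (edgeR adjusted p = 0.979 for each) and with DESeq2 or RLE size factors. With the covariate no gene was called by edgeR, and the log2 fold changes were -0.10 for Tek and -0.15 for Vcam1. Over all alternatives run, leaving out libraries included, the estimate stayed below 0 for both genes, from -0.31 to -0.10 for Tek and from -0.33 to -0.10 for Vcam1. Each call held in 6 of the 17 fits that left out 1 library. Tek kept it without D2 female EGFP 3, RXRa 3 or RXRa 5 or D2 male EGFP 5, RXRa 1 or RXRa 3, and Vcam1 without D2 female EGFP 4 or RXRa 3 or D2 male EGFP 3, EGFP 5, RXRa 1 or RXRa 3. Without any other library the edgeR adjusted p rose to at most 0.136 for Tek and 0.180 for Vcam1. The median level of the silent genes moved the same way, from 0.528 with EGFP to 0.464 CPM per kb with RXRa in D2 females and from 0.534 to 0.459 in D2 males. Of 10 striatal neuron markers 8 were called higher in D2, with Drd1 at 0.89 and Snap25 at 0.74. The part of either in the Tek and Vcam1 values was not tested.

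The effect in D2 minus that in D1 was not called for any of the 10 genes by edgeR, nor for any gene tested (0%), with 3609 genes at an unadjusted p under 0.05, none of them among the 10. DESeq2 and limma voom called 0 genes as well. It was -0.14 for Tek (95% interval -0.30 to 0.01, edgeR adjusted p = 0.602) and -0.08 for Vcam1 (-0.25 to 0.09, edgeR adjusted p = 0.760). Under EGFP, D2 and D1 nuclei differed in 0.121% of genes tested (0.0478% higher and 0.0729% lower in D2), and in 0 of the 10 with edgeR, DESeq2 or limma voom, with a lowest edgeR adjusted p of 0.478 and none at an unadjusted p under 0.05.

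As a check of the labels, the vector's own RXRa sequence had 0 counts in all 4 bulk GFP libraries and 22.1 to 37.7 CPM in bulk RXRa libraries. In sorted libraries it was at most 0.877 CPM with EGFP and 43.4 to 710 CPM with RXRa. The total over genes was 21567565 to 29167142 counts per bulk library and 12211655 to 27757463 per sorted library.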

How the data were processed

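RNA was sequenced from bulk tissue (poly(A)-selected) and from sorted nuclei (ribosomal-RNA-depleted total RNA), per the labels' protocols. The authors deposited raw, unnormalized counts of reads for each gene. GRCm38, HISAT2, featureCounts, Trimmomatic, FastQC, Picard and Subread are named in the submitters' processing notes; versions, the annotation release and the use of strand are not given in the sources used here. Positions are those of GENCODE M21, which held 55394 of 55487 identifiers.

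Groups came from the labels by tissue, population, sex and vector. In 1 sorted sample the title disagrees with the vector label, so it was left out of all comparisons. The counts were tested with edgeR 4.0.16 in R 4.3.3 (quasi-likelihood test, filterByExpr, TMM, Benjamini-Hochberg over all genes tested), bulk alone and the 35 assigned sorted libraries as 8 groups with the sexes weighted equally, in 5 comparisons. Library sizes exclude the vector entries. The method was tested on simulated data. DESeq2 1.42.0, limma 3.58.1 (voom), other scalings and filters, a replicate block, a background covariate, single sexes and leaving out each library were alternatives. Of 72 replicate pairs none agreed within sampling noise (chi-square per degree of freedom 1.911 to 73.5).

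The 10 genes are always named; from each of 16 other lists up to 4 called genes with a mean CPM of at least 1 are named by size of change, and a 5th leukocyte adhesion partner, Icam2, with the lower Icam5, was named after its value was seen. A called gene of that list is not reported here. The members and lists were chosen with earlier results of these data known. Most alike genes were ranked by Pearson r with the mean residual of log2(CPM + 1).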

Additional observations from a re-analysis of the deposited data

Results flagged for a closer look

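Within groups of 4 or 5 libraries, a library was singled out when its gap to the nearest other was large against the whole range of the group (Dixon's 95% value). This held in 4 of 100 groups of gene and condition, and chance gives about 1 in 20. In D1 male EGFP, library 2 was the highest for Cldn5 at 0.702 CPM, with the next at 0.390, and the lowest for Tek at 74.2 CPM, with the next at 80.3. In D1 female RXRa, library 2 was the highest for Flt1 at 108 CPM, with the next at 102. In D1 female EGFP, library 4 was the highest for Selp at 24.3 CPM, with the next at 23.1. The sorted library in no group, whose vector label names EGFP and whose title does not, held the vector's RXRa sequence at 178 CPM, above the highest EGFP library at 0.877 CPM.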

How the results depend on the processing

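The 4 or 5 libraries a group limit the precision. In bulk, 687 genes and 2 of the 10 members were called. DESeq2 called 1619 and 5, limma voom 1 of the 10, edgeR without the low-count filter 4 of the 10, and leaving out 1 library gave 9 (without GFP 4) to 1016 genes (without RXRa 1) and 0 to 3 of the 10. Scaling by library totals without bulk GFP 3, an alternative chosen after seeing the data, gave 407 genes and 1 of the 10, ended the Slc2a1 call (edgeR adjusted p = 0.0620) and turned Cldn5 to -0.030. Flt1 turned to 0.023 with library totals. Leaving out 1 library moved Cldn5 between -0.059 (without GFP 3) and 0.20 and Flt1 between -0.058 and 0.044. Whether the labels' replicate numbers pair libraries was not settled. Over 19 same-numbered pairs r ran from -0.60 to 0.72, 8 were above 0.1, and 5 correlated best with their own number. With 4 or 5 libraries a group this check cannot exclude pairing. With the replicate block, 0 genes and 0 of the 10 were called in bulk, 1 gene and 0 of the 10 in D2, and 30 genes for D2 against D1. In D2, 9683 genes and 2 of the 10 were called with edgeR. The background covariate, females only and males only each gave 0 genes and 0 of the 10, and the D2 groups alone 2547 genes and 0. DESeq2, no filter and RLE size factors gave 0 of the 10, limma voom 1 and library totals 5. Leaving out 1 library gave 0 (without D2 female RXRa 4) to 14766 genes and 0 to 4 of the 10. For D2 against D1, 53 genes became 86 with the covariate, 90 with DESeq2, 22 in females, 33 in males and 36 to 61 without 1 library. Signs turned in D2 for Cldn5 (0.29 with the covariate, 0.0036 with DESeq2, 0.21 in males, -0.26 to 0.10 without 1 library), Pecam1 (0.031 with the covariate, 0.012 in males) and Slc2a1 (0.00037 with DESeq2, -0.056 to 0.00034 without 1 library). In D1 they turned for Cdh5 (0.0075), Icam1 (0.012), Pecam1 (0.018), Tek (0.025) and Vwf (0.012) with the covariate, for Cldn5 (-0.0081) and Slc2a1 (0.11) in females, and for Selp (-0.025) with library totals. Tek in D1 also turned with DESeq2 (0.0088), RLE (0.0083), a mean CPM of at least 1 (0.0062), the replicate block (0.0034) and in males (0.0098), and ran from -0.040 to 0.026 without 1 library. None of these turned values was called, and the cause was not tested.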

Other observations

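The library in no group gave 66.2 CPM for Pecam1, 23.9 for Cdh5, 106.5 for Flt1, 70.4 for Tek, 91.7 for Vwf, 8.23 for Icam1, 12.7 for Vcam1, 22.6 for Selp, 19.4 for Slc2a1 and 0.545 for Cldn5.

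In the TMM-scaled fit, genes of the transporter and junction lists were called in both directions in D2 nuclei with RXRa. In that comparison 22.1% of all genes tested were called by edgeR. Both lists were drawn up by name and are not restricted to genes of vessel cells. No gene was called in that comparison with the background covariate, within either sex or without D2 female RXRa 4, and the share of calls that were higher went from 67.6% to 18.1% with library totals, so the directions below are those of the TMM-scaled fit and were not checked gene by gene under other scalings. Of 15 barrier transporters 4 were called higher and 5 lower. Higher were Lrp1 at 0.60 and Tfrc at 0.53, and lower were Abcb1a at -0.24 and Slco1a4 at -0.22 on the log2 scale. Of 17 genes of junctions and vesicle traffic 5 were called higher, with Ctnnb1 at 0.45 and Cldn12 at 0.41, and 4 lower, with Cav2 at -0.41 and Cav1 at -0.27. Of 12 mural cell markers 2 were called lower, Kcnj8 at -0.40 and Abcc9 at -0.26. Of 15 interferon response genes 6 were called lower, led by Ifit1 at -0.81. In bulk tissue, a comparison of other animals, vectors and RNA, 14 of the 15 were called higher. Their median summed level in D2 was 161 CPM with EGFP and 127 with RXRa in females, and 146 and 136 in males. In bulk it was 1572 CPM with GFP and 3695 with RXRa. Whether the D2 levels of these genes exceed those of silent genes was not tested.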
